A study of Homo sapiens with 3 samples.

Results

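Desmosomes are the spot-like junctions that tie the keratin skeletons of neighbouring epithelial cells together. Their core is built of transmembrane cadherins, the desmocollins (DSC) and desmogleins (DSG), which grip each other between cells. Inside the cell the armadillo proteins plakoglobin (JUP) and plakophilin (PKP) connect the cadherin tails to desmoplakin (DSP), which binds the keratin filaments. PERP is a membrane protein of desmosomes and a target gene of p53 and p63. In the epidermis, DSC3 and DSG3 are known from the basal and lower layers, whereas DSC2 and DSG2 are found in many other epithelia and in heart muscle too.

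The genes described here are DSC2, DSC3, DSG2, DSG3, JUP, PKP1, PKP2, PKP3, DSP and PERP. They were taken by symbol, with every probe set that the platform annotation pairs with 1 of these symbols alone. That gave 27 of the 49395 probe sets on the array and 10 of the 18132 named genes. The number of probe sets was 6 for DSC2, 3 each for DSC3, DSG2, PKP1 and PERP, 2 each for DSG3, PKP2, PKP3 and DSP, and 1 for JUP.

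The cells were KYSE150, an established human oesophageal squamous carcinoma line, grown with 10% serum and taken 48 h after transfection. LOXL2 is lysyl oxidase like 2, an amine oxidase that crosslinks collagen and elastin. The first group received a pcDNA3.1 plasmid for LOXL2 delta72, a form the labels name without describing it, the second a pcDNA3.1 plasmid for LOXL2 WT, and the control group a vector that the labels do not name further. Each group was 1 Affymetrix expression array, made from 100 ng of total RNA, so the 3 arrays give no spread between samples and no test was possible. "Higher" and "lower" below refer to these arrays, and their number limits the precision. The share of cells that took up a plasmid is not given in the sources used here.

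All values are the authors' deposited log2 intensities, and a difference of 1 is 2-fold. The brightest probe set of each gene stands for it, and the other probe sets are given beside it, since levels of different probe sets cannot be set against each other. A gene was counted in the background when its brightest probe set averaged at least log2 5.27, the 40th percentile of the array, which 12232 genes and 10 of 10 desmosome genes did. Of the 27 desmosome probe sets, 23 did. The brightest LOXL2 probe set read 14.06 with delta72, 14.05 with WT and 7.46 in the control. Of the other LOXL2 probe sets, 2 also read far above control, by 5.16 and 2.64 with delta72 and by 5.16 and 2.69 with WT, but 1 read 8.66 with delta72 and 8.32 with WT, against 8.81 in the control. Of the squamous epithelial markers, 5 of 7 had a probe set with 1 symbol, and these 5 passed the filter, between 7.10 and 11.91 with delta72, 7.08 and 11.95 with WT and 7.76 and 11.91 in the control. Among markers of other cell types, 0 of 3 cardiac muscle genes, 1 of 5 fibroblast, 1 of 2 leukocyte, 2 of 3 endothelial and 2 of 3 melanocyte genes passed, and the highest of them read 6.18 with delta72, 6.25 with WT and 6.25 in the control.

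DSC3, the desmocollin of basal epidermal layers, was the desmosome gene that differed most. Its brightest probe set read log2 6.95 with LOXL2 delta72, 7.28 with LOXL2 WT and 7.81 in the control. The level was thus lowest with delta72 and highest in the control, with WT between them. The difference from control was -0.86 with delta72, a 1.82-fold lower level, and -0.53 with WT, a 1.45-fold lower level. Against WT, delta72 was lower by -0.33, or 1.26-fold.

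The other DSC3 probe sets lay on the same side of the control. The second read 6.95 with delta72, 7.33 with WT and 7.66 in the control, differences of -0.70 and -0.33. The third, the dimmest, read 6.06 with delta72, 5.95 with WT and 6.24 in the control, differences of -0.19 and -0.30. All 3 were therefore below control with each form, but the third placed delta72 above WT, by 0.11, where the first and second placed it below. The SD over the 3 probe sets was 0.35 for the delta72 and 0.13 for the WT difference from control, and 0.27 for the difference between the forms. These SDs describe disagreement between probes on the same arrays and hold no biological error.

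**Figure D1:**
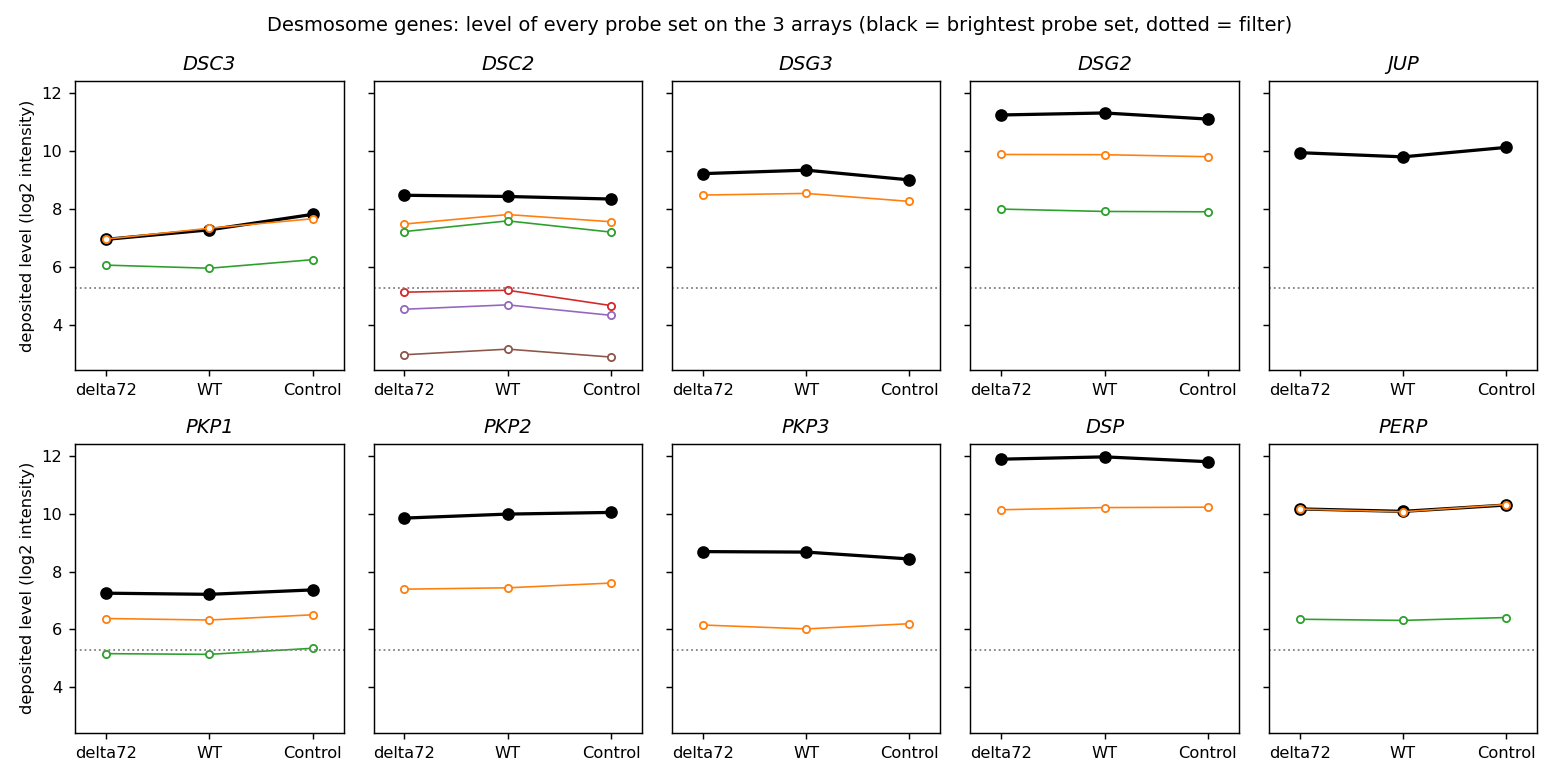
Deposited log2 intensity of all 27 probe sets of the 10 desmosome genes (vertical axis) on the LOXL2 delta72, LOXL2 WT and Control arrays (horizontal axis), 1 panel a gene; each line is a probe set, the black line the brightest one, and the dotted line the filter at 5.27. The brightest DSC3 line climbs from left to right, 6.95, 7.28 and 7.81, while the brightest lines of the other 9 genes span at most 0.34.

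Placed among the 12232 genes, DSC3 was the 10th lowest in delta72 minus control, where 0.302% of genes differed by as much in either direction. It was the 153rd lowest in WT minus control, where 3.94% differed by as much, and the 109th lowest in delta72 minus WT, where 2.36% did. Both differences from control use the same control array, so they are not separate observations of it. The delta72 minus WT difference does not use that array, and there the DSC3 probe sets disagreed in sign.

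The other desmocollin, DSC2, did not share this pattern. Its brightest probe set read 8.47 with delta72, 8.43 with WT and 8.34 in the control, differences of 0.13 and 0.09. That probe set carries the Affymetrix suffix for probes that can match transcripts of more than 1 gene, and those next in brightness, with the suffix for transcripts of a single gene, gave another order. They read 7.47 and 7.22 with delta72, 7.80 and 7.58 with WT, and 7.55 and 7.20 in the control. All 6 DSC2 probe sets were higher with WT than in the control, by 0.09 to 0.53. With delta72 5 of 6 were higher, by up to 0.46, and 1 was at -0.08. In 5 of 6 probe sets delta72 was below WT, by as much as -0.37, while the brightest had 0.04. Of these 6, 3 were under the filter, including the one at 0.46 and 0.53, so the largest values rest on dim readings.

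DSC3 and DSC2 are neighbours. In GRCh38 DSC3 lies on chromosome 18 at 30989365 to 31042742 and DSC2 at 31058840 to 31102421, with 16097 bases between them, both on the minus strand. They begin a cluster of 7 protein-coding genes over 559.6 kb, in the order DSC3, DSC2, DSC1, DSG1, DSG4, DSG3 and DSG2. DSC1, DSG1 and DSG4, the cadherins of upper epidermal layers and hair, were below the filter on average, at 3.52, 3.92 and 4.45 with delta72, 3.48, 3.84 and 4.11 with WT, and 3.51, 3.91 and 4.35 in the control. Of the 4 cadherins above the filter, DSC3 was the one that read below control. DSC2 beside it, and DSG3 and DSG2 at the far end, read above control in their brightest probe sets.

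**Figure D2:**
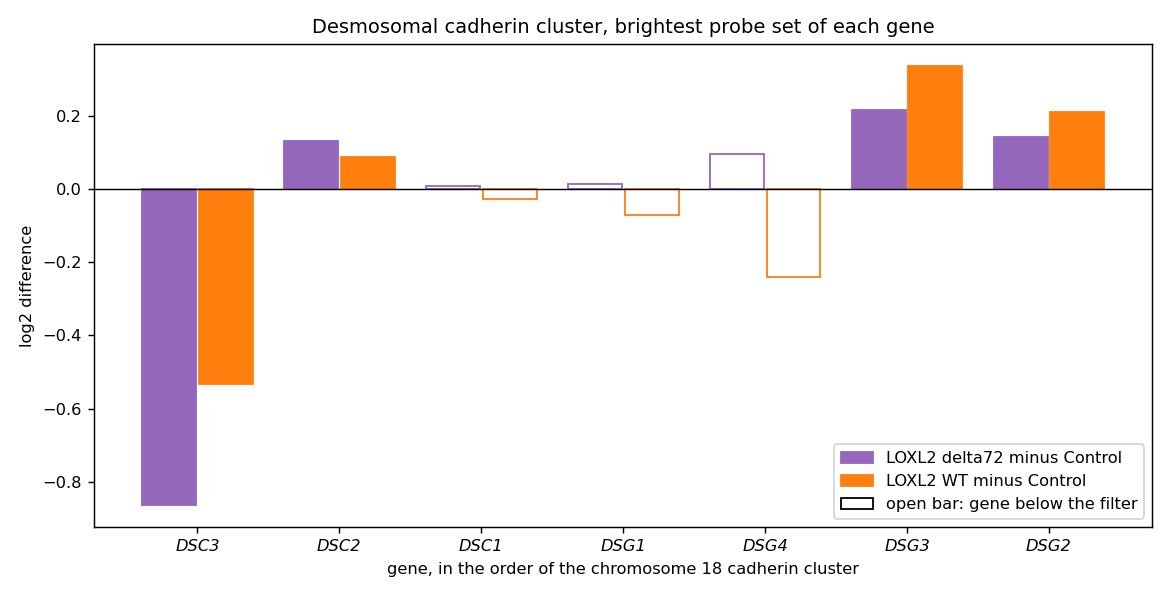
Log2 difference from Control (vertical axis) of the 7 cadherin genes in their order along chromosome 18, with LOXL2 delta72 left of LOXL2 WT for each gene and open bars for genes below the filter; bars are single differences of the brightest probe set, without error. DSC3 at -0.86 and -0.53 stands opposite to DSC2, DSG3 and DSG2, which lie between 0.09 and 0.34. With delta72, the dimmer DSC2 probe sets above the filter, not drawn here, read -0.08 and 0.02.

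The 250 bases upstream of the annotated starts of the expressed cadherin genes are shown because DSC3 and its neighbours differed in direction by their brightest probe sets. They are from RefSeq (GRCh38.p14), read 5′ to 3′ in the direction of the gene, and capitals mark matches to CAGGTG or GGGCGG on either strand. CAGGTG is an E-box of the kind bound by SNAI factors and GGGCGG is the GC box of SP factors. The windows are chr18:31042743-31042992 for DSC3 and chr18:31102422-31102671 for DSC2 on the minus strand, and chr18:31447491-31447740 for DSG3 and chr18:31497927-31498176 for DSG2 on the plus strand.
DSC3: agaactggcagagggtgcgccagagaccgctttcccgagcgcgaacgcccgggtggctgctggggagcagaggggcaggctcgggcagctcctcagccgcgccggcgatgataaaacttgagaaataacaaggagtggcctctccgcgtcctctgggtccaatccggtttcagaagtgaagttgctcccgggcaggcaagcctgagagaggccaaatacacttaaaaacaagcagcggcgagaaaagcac
DSC2: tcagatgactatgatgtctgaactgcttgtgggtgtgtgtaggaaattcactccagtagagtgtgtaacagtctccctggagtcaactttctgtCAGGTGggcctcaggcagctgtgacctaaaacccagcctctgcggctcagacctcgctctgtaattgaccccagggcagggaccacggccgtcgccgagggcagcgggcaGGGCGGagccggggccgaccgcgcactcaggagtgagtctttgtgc
DSG3: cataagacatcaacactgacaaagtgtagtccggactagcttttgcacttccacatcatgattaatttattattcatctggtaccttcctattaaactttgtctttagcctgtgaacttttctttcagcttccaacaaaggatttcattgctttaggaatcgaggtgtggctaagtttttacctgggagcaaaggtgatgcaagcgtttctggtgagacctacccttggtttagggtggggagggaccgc
DSG2: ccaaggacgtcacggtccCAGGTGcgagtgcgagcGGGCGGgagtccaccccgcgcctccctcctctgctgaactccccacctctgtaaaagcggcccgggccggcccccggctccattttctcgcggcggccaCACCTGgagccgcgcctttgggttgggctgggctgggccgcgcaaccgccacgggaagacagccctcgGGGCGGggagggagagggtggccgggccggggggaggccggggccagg
DSC3 and DSG3, the cadherins of basal epidermal layers, had neither motif in this window, whereas DSC2 had 1 of each and DSG2 had 2 of each. Windows were found for 8 of the 10 desmosome genes. CAGGTG was present in 3 of these 8 (DSC2, DSG2 and DSP) and in 17.5% of the 27305 windows of this length over all genes, and GGGCGG in 6 of 8, against 42.3%. Both motifs are rich in G and C, and these shares were not matched for GC content. The GC content of the 8 windows ran from 42.8% in DSG3 to 78% in DSP, with 77.2% in PERP and 75.2% in DSG2. The median over all windows was 58%. TGANTCA, the AP-1 motif, was present in PERP alone and in 6.60% of all windows, whereas AACNGGTT, the Grainyhead motif, and TATAAA were in 0 of 8, with 1.48% and 11.1% of all windows. Both strands were searched for each motif, and no 2 matches of different motifs overlapped in these genes. A match is a run of letters and was not tested as a binding site.

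Both desmogleins were slightly higher with either form of LOXL2. DSG3 is the partner of DSC3 in basal epidermal layers and the main target of antibodies in pemphigus vulgaris. DSG3 read 9.21 with delta72, 9.33 with WT and 9.0 in the control, differences of 0.22 and 0.34. Its second probe set gave 0.22 and 0.28, so both probe sets had the WT array highest and the control lowest. DSG2 read 11.24 with delta72, 11.31 with WT and 11.10 in the control, differences of 0.14 and 0.21, on a probe set with the same multi-gene suffix as that of DSC2. The other DSG2 probe sets were nearer to 0, at 0.08 and 0.09 with delta72 and at 0.07 and 0.01 with WT. A level 1.26-fold above control, that of DSG3 with WT, was the largest upward fold of a brightest probe set among the 10 genes. In that comparison 15.4% of all genes differed by as much.

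Of the armadillo genes, whose proteins hold the cadherin tails, 3 of 4 were lower than control with delta72, against 49.8% of all genes. With WT 3 of 4 were lower too, against 51.7%, and both comparisons share the control array. JUP, which also serves adherens junctions, read 9.94 with delta72, 9.79 with WT and 10.12 in the control, differences of -0.18 and -0.33 on its single probe set. With delta72, 33.7% of all genes differed by as much as JUP, and with WT 16.5%. PKP1, the plakophilin of stratified epithelia, read 7.25 with delta72, 7.21 with WT and 7.37 in the control. Its 3 probe sets lay between -0.19 and -0.11 with delta72 and between -0.21 and -0.15 with WT. As much as the brightest of them, 53.4% of all genes differed with delta72 and 48.3% with WT.

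PKP2, the plakophilin also found in simple epithelia and heart, read 9.84 with delta72, 9.98 with WT and 10.04 in the control. The differences were -0.20 with delta72 and -0.06 with WT, and -0.21 and -0.16 on its second probe set. Delta72 was the lowest array on both, as for DSC3 in its brighter probe sets. PKP3, the plakophilin of most epithelial layers, read 8.69 with delta72, 8.67 with WT and 8.43 in the control, differences of 0.25 and 0.24. Its dimmer probe set went the other way, at -0.04 and -0.18, so the direction for PKP3 depended on the probe set. With delta72, 30.7% of all genes differed by as much as PKP2 and 20.1% by as much as PKP3. With WT these shares were 78.6% and 29.5%.

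DSP, the anchor to keratin filaments, stayed near its control level. It read 11.88 with delta72, 11.96 with WT and 11.79 in the control, differences of 0.09 and 0.17 on a probe set that also has that suffix. The other probe set gave -0.09 and -0.01. Both placed delta72 below WT by nearly the same amount, -0.08 and -0.07. PERP read 10.16 with delta72, 10.08 with WT and 10.30 in the control, differences of -0.13 and -0.22. All 3 PERP probe sets were below control with either form and had the WT array lowest, although 1 of them carries the suffix for probes that may cross-hybridise.

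**Figure D3:**
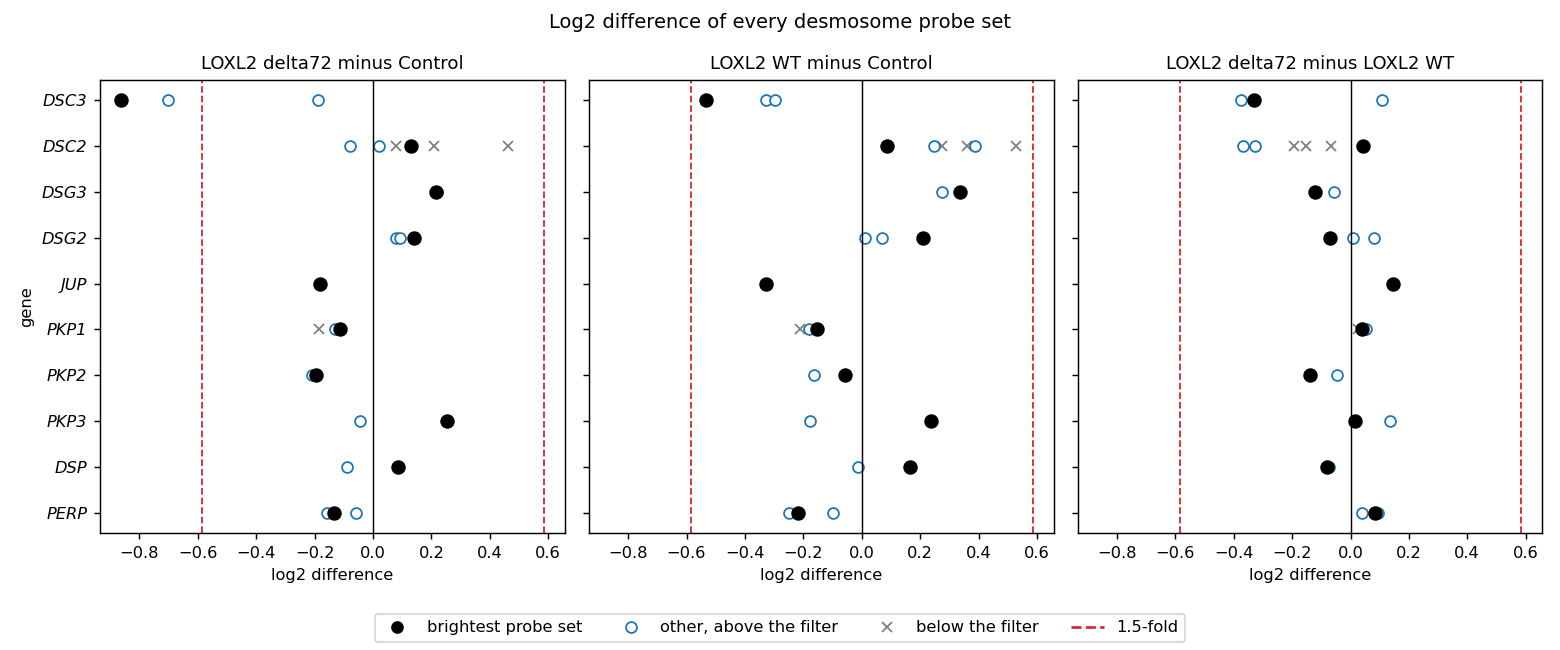
Log2 difference (horizontal axis) of each desmosome probe set in 3 panels, for LOXL2 delta72 minus Control (left), LOXL2 WT minus Control (middle) and LOXL2 delta72 minus LOXL2 WT (right); black points are brightest probe sets, open points others above the filter, crosses those below it, and dashed lines 1.5-fold. The brightest and the second DSC3 probe sets with delta72, at -0.86 and -0.70, are the points beyond the dashed lines, and DSC2, PKP3 and DSP have probe sets on both sides of 0 in the left panel.

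Counted over the 10 genes, desmosome genes were split evenly in direction in every comparison when read from the brightest probe set. With delta72 5 were lower and 5 higher than control, with WT 5 and 5, and between the forms 5 were lower and 5 higher with delta72. Of all genes, 49.8% were lower with delta72 than in the control, 51.7% were lower with WT than in the control and 49.3% were lower with delta72 than with WT. The median difference of the 10 genes was -0.01 with delta72 and 0.02 with WT, against 0 and -0.0094 over all genes, and -0.03 between the forms, against 0.0013 over all genes. Each gene was also read as the median of its probe sets above the filter, taken on each array. By that reading 7 of 10 were lower with delta72, with a median of -0.10. With the median over all probe sets 6 were, with a median of -0.06. The WT median was -0.04 under both of these.

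At 1.5-fold, 1 of 10 genes, DSC3, was lower with delta72, against a background of 0.499% of genes, and 0 were higher, against 1.28%. With WT 0 were lower, against 0.867%, and 0 higher, against 1.85%. Between the forms 0 were lower, against 0.0409%, and 0 higher, against 0.180%. The member next to DSC3 in size with delta72 was PKP3 at 1.19-fold, so a wide gap lay between the first and the second. At the smaller size of log2 0.32, DSC3 and JUP were lower with WT, against 7.12% of all genes, and DSG3 was higher, against 9.92%. JUP lay just past that limit, at -0.33. With delta72, DSC3 alone was lower by that much, against 4.72% of all genes, and 0 were higher, against 7.52%. Between the forms, DSC3 alone was lower by its brightest probe set, against 0.981%, and 0 were higher, against 1.55%. The dimmer DSC2 probe sets above the filter also passed that size, at -0.33 and -0.37. At 2-fold, 0 of 10 were lower with delta72, against 0.0164%.

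**Figure D4:**
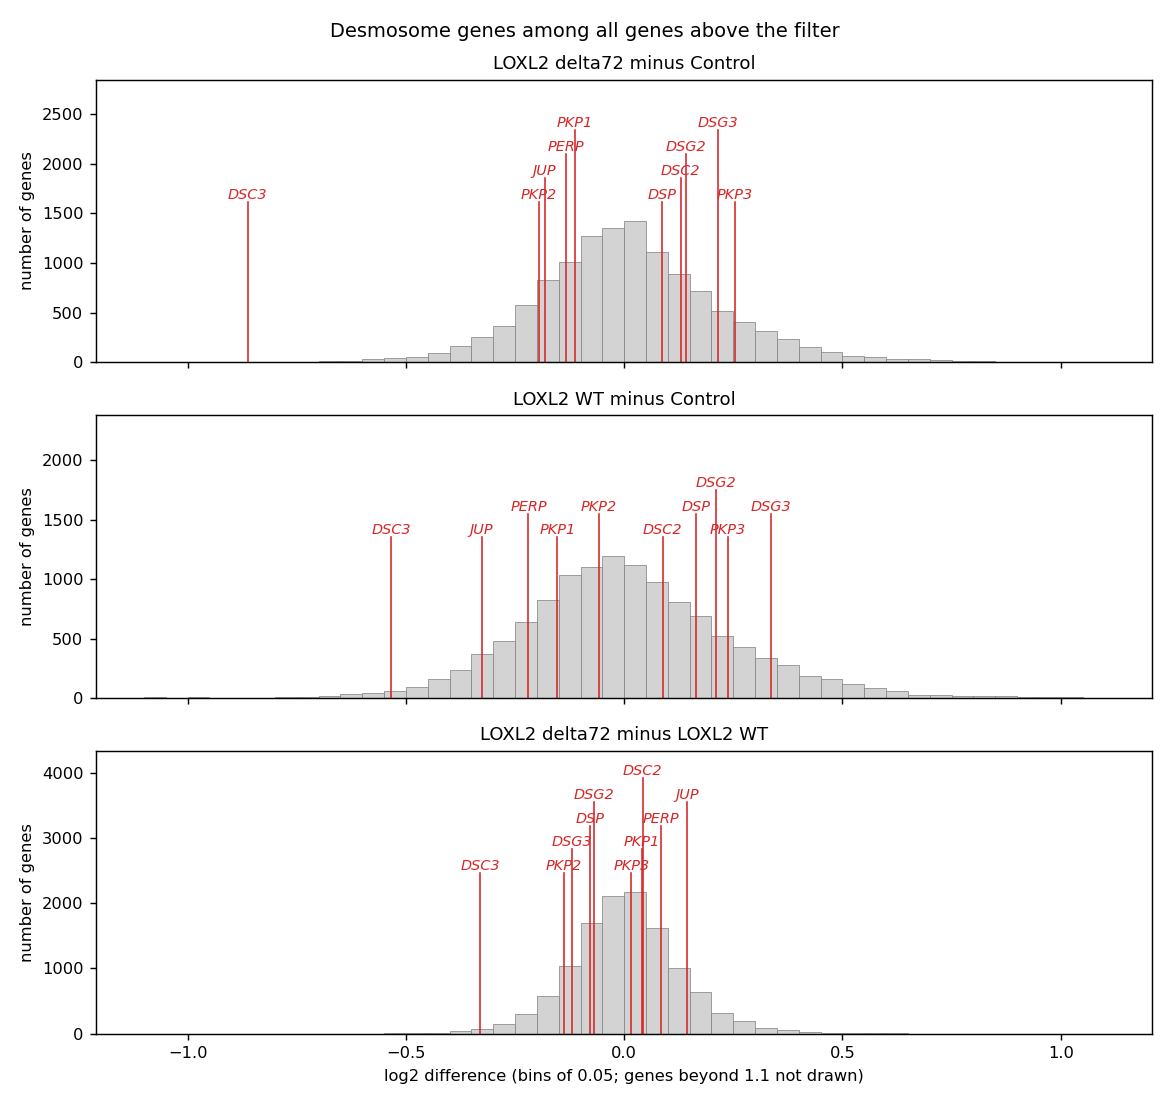
Number of genes (vertical axis) by log2 difference (horizontal axis, bins of 0.05) for the 12232 genes above the filter, with the 10 desmosome genes as labelled red lines, with LOXL2 delta72 minus Control at the top, LOXL2 WT minus Control in the middle and LOXL2 delta72 minus LOXL2 WT at the bottom. DSC3 lies in the left tail of each panel, at -0.86, -0.53 and -0.33, and the other 9 lines lie within 0.34 of 0.

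By their brightest probe sets, the 10 genes followed 4 orders of the arrays. DSC3 and PKP2 were lowest with delta72, then WT, with the control highest. JUP, PKP1 and PERP were lowest with WT and had delta72 between WT and control, and DSG2, DSG3 and DSP were highest with WT and also had delta72 between. DSC2 and PKP3 were highest with delta72, although 5 of 6 DSC2 probe sets had delta72 below WT. The delta72 array thus held the middle place for 6 genes and the WT array for 4. Such places were not counted over all genes, so these numbers describe the 10 genes alone. Some rest on small gaps, delta72 minus WT being 0.02 for PKP3, 0.04 for PKP1 and 0.04 for DSC2. By brightest probe sets, the size of delta72 minus WT was at most 0.14 for the genes other than DSC3. The largest difference between these arrays over the 23 background control probe sets was 0.15. DSC2 passed that size on its dimmer probe sets above the filter, at -0.33 and -0.37. For delta72 minus control the background probe sets differed by up to 0.17, which 5 of the 10 genes exceeded (DSC3, PKP3, DSG3, PKP2 and JUP) and 36.0% of all genes did. For WT against control they differed by up to 0.29, which 3 of 10 exceeded (DSC3, DSG3 and JUP) and 21.7% of all genes did. Both of these limits against control were reached below 0. The background differences ran from -0.17 to 0.05 for delta72 minus control and from -0.29 to 0.03 for WT minus control. These limits describe control probes and hold no difference between cultures.

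The genes closest to DSC3 over the 3 arrays, each centred on its own mean, were OLR1, ALPP, SERPINB13, LOXL4 and PROM2, with Euclidean distances of 0.04, 0.04, 0.06, 0.09 and 0.09 on the log2 scale. OLR1, a receptor for oxidised lipoprotein, was at -0.91 with delta72 and -0.58 with WT. SERPINB13, a protease inhibitor of squamous epithelium, was at -0.82 and -0.44, and LOXL4, another lysyl oxidase, at -0.99 and -0.63. With 3 arrays this likeness describes these readings alone.

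Genes of the keratin filaments to which desmosomes anchor were mostly lower on the LOXL2 arrays, while plakin genes were mixed with delta72. Of the keratin and plakin genes, 10 of 13 had a probe set with 1 symbol and 9 passed the filter. With delta72 6 were lower and 3 higher, with a median of -0.31, against 49.8% of all genes lower and a median of 0. The 3 higher with delta72 were KRT7 and the plakin genes EVPL, at 0.20, and PLEC, at 0.0012. With WT 9 were lower, with a median of -0.25, against 51.7% of all genes and a median of -0.0094. The basal keratin genes led, KRT15 at -0.90 with delta72 and -1.0 with WT, and KRT14 at -0.66 and -0.67. KRT5, the partner of KRT14, was at -0.35 and -0.09, and KRT7, a keratin of simple epithelia, at 0.32 and -0.16. Other keratins of simple epithelia were lower with both forms, KRT8 at -0.31 and -0.26 and KRT18 at -0.32 and -0.28. At 1.5-fold 2 of these 9 were lower with delta72 and 2 with WT, against 0.499% and 0.867% of all genes. Between the forms, 3 of these 9 were lower and 6 higher with delta72. KRT15 and KRT14 differed by 0.10 and 0.02, KRT5 by -0.26 and KRT7 by 0.48, beside -0.33 for the brightest DSC3 probe set.

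Among desmosomal genes outside the 10, PKP4, a plakophilin relative that also sits at adherens junctions, passed the filter, and DSC1, DSG1, DSG4 and CDSN did not. PKP4 read 8.69 with delta72, 8.73 with WT and 9.07 in the control, differences of -0.39 (SD 0.10 over 4 probe sets) and -0.34 (SD 0.17). It was below control with both forms, like JUP, PKP1 and PKP2. PKP3 was above control in its brightest probe set, at 0.25 and 0.24, and below it in the dimmer one, at -0.04 and -0.18.

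Neighbouring junctions were mixed, and the counts below stand beside 49.8% of all genes lower with delta72 and 51.7% with WT. Of 8 adherens junction genes above the filter, 6 were lower with delta72, with a median of -0.08, and 6 with WT, with a median of -0.10. NECTIN1 was at -0.30 with delta72 and -0.32 with WT, NECTIN4 at -0.28 and -0.54, CTNNB1, which encodes beta-catenin, at -0.14 and -0.11, and AFDN at 0.17 and 0.13. Of 7 tight junction genes, 3 were lower with delta72 and 4 with WT, with medians of 0.02 and -0.04. OCLN, which encodes occludin, was at 0.58 and 0.48 and MARVELD2, which encodes tricellulin, at 0.17 and 0.54, while TJP3 was at -0.14 and -0.04 and CGN, cingulin, at -0.08 and -0.13. Of 5 hemidesmosome genes, 2 were lower with either form, with medians of 0.04 and 0.05. ITGB4 was at -0.36 and -0.45, LAMB3 at 0.33 and 0.10, DST at 0.14 and 0.15 and ITGA6 at -0.11 and -0.06.

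Of the factors and enzymes known to act on desmosomes, 11 passed the filter. With delta72 4 were lower and 7 higher, with a median of 0.07, against 49.8% of all genes lower. With WT 3 were lower and 8 higher, with a median of 0.05, against 51.7% lower. GRHL1, a Grainyhead factor that in mouse skin activates the desmoglein gene Dsg1, was at 0.68 with delta72 and 0.71 with WT, but its probe sets disagreed (SD 0.59 and 0.48 over 2). SNAI2, a repressor that binds E-boxes, was at 0.54 and 0.60 on 1 probe set. KLK5, a protease that cleaves corneodesmosomes, was at -0.41 and -0.27, and KLF4, a factor of squamous differentiation, at 0.31 and 0.29 (SD 0.26 and 0.39 over 2 probe sets). At 1.5-fold 1 of 11, GRHL1, was higher with delta72, against 1.28% of all genes, and 2 of 11, GRHL1 and SNAI2, with WT, against 1.85%.

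**Figure D5:**
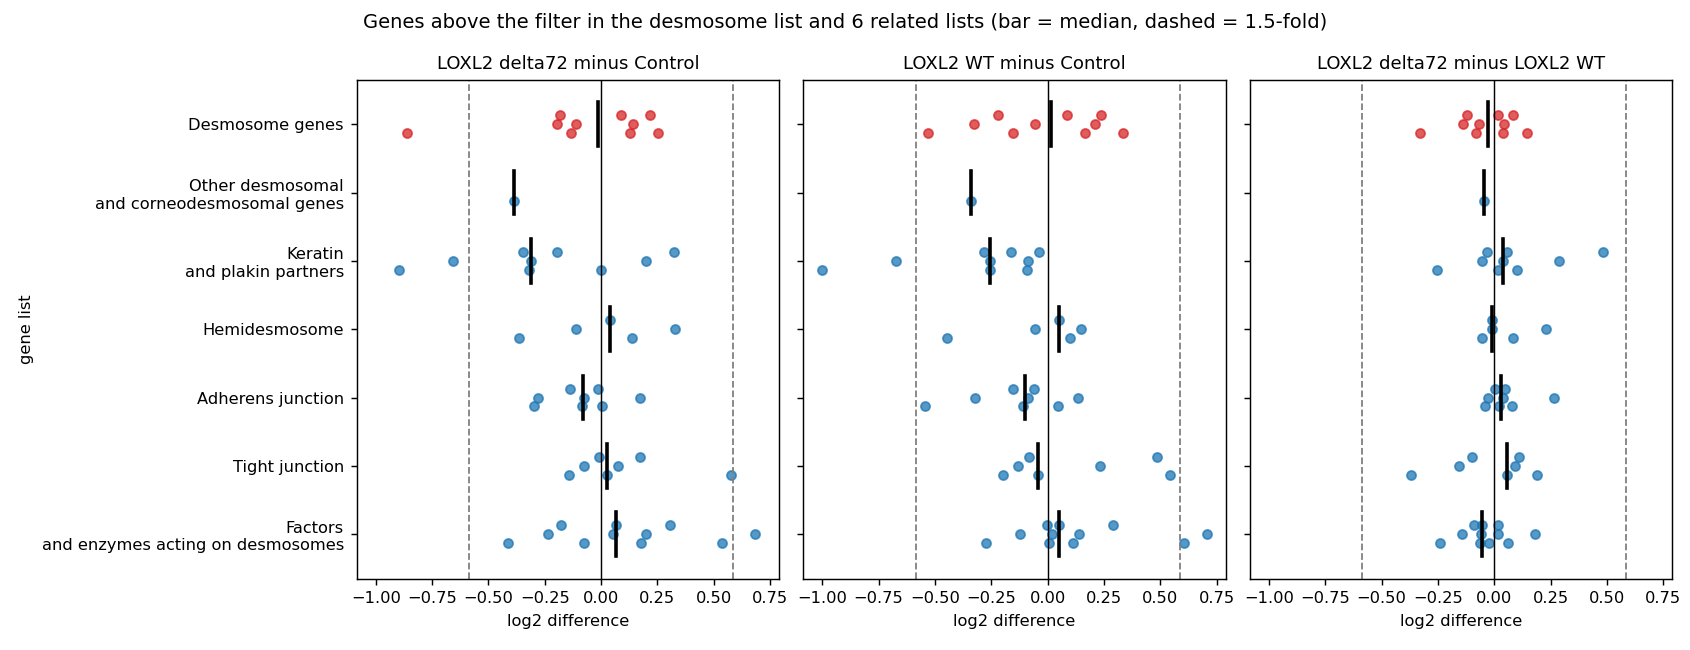
Log2 difference (horizontal axis) of each gene above the filter in the desmosome list (red) and 6 related lists (blue), with LOXL2 delta72 minus Control on the left, LOXL2 WT minus Control in the middle and LOXL2 delta72 minus LOXL2 WT on the right; black bars are medians and dashed lines 1.5-fold. The desmosome medians lie at -0.01, 0.02 and -0.03, and the keratin and plakin medians at -0.31, -0.25 and 0.04.

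Measures of RNA quality and of marker intensity are given beside these results. The 3′ minus 5′ difference of the actin control probe sets was 1.32 with delta72, 1.46 with WT and 1.26 in the control, and that of the GAPDH control probe sets was 0.0020, 0.0029 and -0.0058. The summed linear intensity of the 5 measured squamous markers was 12806 with delta72, 13552 with WT and 13767 in the control. That of the 5 fibroblast markers was 132, 139 and 138. Such a sum weighs bright probe sets most, and the squamous markers disagreed. With each form 3 of 5 were lower than control, KRT14 by -0.66 and -0.67. The other 2 were slightly higher, CDH1 by 0.0045 and 0.05 and EPCAM by 0.06 and 0.08. The part of RNA quality and marker levels in the differences of the desmosome genes was not tested. Fewer cells with a transcript and less of it per cell cannot be told apart in these bulk samples.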

How the data were processed

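RNA of 3 samples of KYSE150 cells, 1 a group, was measured on Affymetrix 3′ expression arrays. Per the labels' protocols, 100 ng of total RNA was copied into biotinylated cRNA. Partek and Affymetrix Expression Console stand in the submitters' processing notes. The method of normalization and any background step are not stated in these sources. The authors' deposited values ran from 2.07 to 14.56 and were read as log2 intensity, and the array medians of 5.94, 5.93 and 5.95 show a near-common scale, which hides any change common to most genes.

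Of 49395 probe sets, 102 were controls, 44988 had 1 gene symbol in the platform annotation, 1832 several and 2473 none there. Genes took their brightest probe set and were kept from the 40th percentile (log2 5.27) on. Differences were computed with Python 3.11.15 and pandas 2.3.3, and called by size at 1.5-fold, with log2 0.32 and 2-fold beside it. The counting was tested on simulated data. Named are all 10 desmosome genes, LOXL2, up to 4 genes of each of 6 related lists with the largest delta72 minus control difference, and the 5 genes nearest to the desmosome gene that differed most. DSC1, DSG1, DSG4, CDSN, KRT8, KRT18, EVPL, PLEC, CDH1 and EPCAM stand outside that rule. Gene positions are those of RefSeq GRCh38.p14. The genes and lists were chosen with earlier results of these data known. A planned comparison of protein sequences was not made.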

Additional observations from a re-analysis of the deposited data

How the results depend on the processing

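No paired analysis was possible because each group has 1 array, and for the same reason no array could be left out. The 30 member values (10 genes in 3 comparisons) were recomputed under 7 alternatives: a shift to a common median, quantile normalization, lowess (span 0.3), the median over all probe sets, the median over those above the filter, no filter, and the 60th percentile filter. The filters cannot change a member's own value, which leaves 150 values under 5 alternatives. The yardstick was the probe SD within genes, pooled over 7163 genes and not each gene's own. It was 0.15 for delta72 minus control, 0.17 for WT minus control and 0.11 for delta72 minus WT. Of the 150 values, 10 moved by more than this pooled SD and 7 changed sign, all with a median over probe sets. DSC3 kept its sign under these 5, at -0.90 to -0.71 for delta72 minus control, -0.57 to -0.38 for WT minus control and -0.34 to -0.32 for delta72 minus WT. The medians were taken on each array before subtraction, so they can set different probe sets against each other. They did so for the -0.71 and -0.38 of DSC3, whose own probe sets gave -0.86, -0.70 and -0.19 with delta72. With WT its probe sets gave -0.53, -0.33 and -0.30. The sign changes concerned DSC2 (delta72 minus control -0.08, delta72 minus WT -0.22 and -0.33), DSP (delta72 minus control -0.0012) and DSG2 (delta72 minus WT 0.0083). PKP3 came to 0.10 for delta72 minus control and 0.03 for WT minus control.

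With the median over probe sets, 6 (all probe sets) or 7 (those above the filter) of 10 genes were lower with delta72 than in the control, against 5 as reported, and 5 in the other comparisons. The median of the 10 genes for WT minus control, 0.02 as reported, was below 0 under these 5 alternatives, down to -0.04.

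Counts also depended on the fold. At 2-fold 0 desmosome genes were lower with delta72, against 1 at 1.5-fold. At log2 0.32, 2 were lower and 1 higher with WT, and 1 lower between the forms, against 0 each at 1.5-fold. The share of all genes at least 1.5-fold lower with delta72 than with WT was 0.0654% with lowess, 0.0882% without the filter and 0% at the 60th percentile. Without DSC3, a choice made after seeing the values, the medians of the other 9 genes were 0.09, 0.09 and 0.02. Signal over background limits the dim probe sets, 3 of DSC2 and 1 of PKP1.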
